A study of Mus musculus with 71 samples.

Results

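The 10 BAF complex subunit genes described here were Ss18, Brd9, Smarca4, Smarcb1, Smarcc1, Arid1a, Arid1b, Dpf2, Pbrm1 and Arid2, out of 55450 genes of GENCODE vM21. A loop belonged to a gene when either anchor reached within 2 kb of any transcription start site (TSS) of that gene, and 72 of the 24244 loops in the merged H3K27ac HiChIP list met this rule for at least 1 of the 10 genes. HiChIP ligates chromatin ends that lie close together in the nucleus and then captures the fragments with an antibody, here against acetylated lysine 27 of histone H3, a mark of active promoters and enhancers. Each loop carries a count of paired-end tags, the ligated read pairs that join its anchors, and the tags of a promoter's loops were summed into its loop score.

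The chromatin came from 2 whole hindlimb tumors of hSS2 mice, a mouse model of synovial sarcoma (SyS). These mice carry a human SS18::SSX2 cDNA in the Rosa26 locus behind a floxed stop cassette, and expression began after TATCre protein was injected into the limb at day 8 of life. The Rosa26 promoter, and not the Ss18 promoter, drives the fusion in this model. Whole tumors also hold endothelial, immune and stromal cells, and no control tissue was assayed by HiChIP, so the loops cannot be assigned to a cell type or set against normal tissue.

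BAF complexes are ATP-driven chromatin remodelers that slide and evict nucleosomes, and they come in 3 assemblies. Canonical BAF holds an ARID1 protein and a DPF protein, polybromo BAF holds PBRM1 and ARID2, and noncanonical BAF holds BRD9 and a GLTSCR1 protein. SS18 sits in the canonical and noncanonical assemblies, which is how the SS18::SSX fusion enters them, and the ATPase SMARCA4 and the scaffold SMARCC1 belong to all assemblies.

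Chromatin was cut with MboI, which recognizes GATC, so a promoter can be ligated only through such sites. Promoters of 5 members are shown because they span the range of loop scores, from Arid1b with the largest to Smarcb1 with a single tag. They also cover the complex classes, except that of Ss18. Each runs 5′ to 3′ along its gene from 250 bases before to 50 bases after the RefSeq start on GRCm38.p6, with GATC in capitals. They lie at chr17:4994824-4995123 on the plus strand for Arid1b, chr14:31018888-31019187 on the plus strand for Pbrm1, chr13:73937561-73937860 on the plus strand for Brd9, chr10:75921565-75921864 on the minus strand for Smarcb1 and chr9:21615919-21616218 on the plus strand for Smarca4.
Arid1b: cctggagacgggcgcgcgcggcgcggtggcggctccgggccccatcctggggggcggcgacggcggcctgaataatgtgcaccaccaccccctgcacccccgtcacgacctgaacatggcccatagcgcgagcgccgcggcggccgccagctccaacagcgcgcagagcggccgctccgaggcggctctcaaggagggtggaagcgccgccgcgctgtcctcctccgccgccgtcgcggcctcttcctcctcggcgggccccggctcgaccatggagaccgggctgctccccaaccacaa
Pbrm1: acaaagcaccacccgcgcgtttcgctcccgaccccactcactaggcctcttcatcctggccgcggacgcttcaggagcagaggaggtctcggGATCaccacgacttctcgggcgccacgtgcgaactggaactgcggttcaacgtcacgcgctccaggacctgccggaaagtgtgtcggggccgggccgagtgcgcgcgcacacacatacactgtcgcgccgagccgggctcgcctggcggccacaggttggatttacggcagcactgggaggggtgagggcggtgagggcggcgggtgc
Brd9: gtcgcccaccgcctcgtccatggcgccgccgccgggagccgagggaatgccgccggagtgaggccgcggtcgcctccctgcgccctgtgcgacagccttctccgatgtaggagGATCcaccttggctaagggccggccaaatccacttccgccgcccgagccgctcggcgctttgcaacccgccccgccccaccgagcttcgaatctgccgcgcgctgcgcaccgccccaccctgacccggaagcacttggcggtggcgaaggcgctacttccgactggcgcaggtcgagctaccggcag
Smarcb1: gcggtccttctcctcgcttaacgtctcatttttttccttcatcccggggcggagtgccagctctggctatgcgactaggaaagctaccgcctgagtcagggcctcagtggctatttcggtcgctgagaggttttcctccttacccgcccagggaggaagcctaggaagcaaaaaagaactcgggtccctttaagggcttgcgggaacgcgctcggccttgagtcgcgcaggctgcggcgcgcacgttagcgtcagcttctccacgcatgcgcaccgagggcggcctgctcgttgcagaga
Smarca4: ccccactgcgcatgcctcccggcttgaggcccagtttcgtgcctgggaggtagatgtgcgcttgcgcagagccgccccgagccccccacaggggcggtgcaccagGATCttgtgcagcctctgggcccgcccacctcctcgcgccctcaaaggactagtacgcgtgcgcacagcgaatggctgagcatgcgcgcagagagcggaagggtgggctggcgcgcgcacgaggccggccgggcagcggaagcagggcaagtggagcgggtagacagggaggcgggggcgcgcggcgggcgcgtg

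The Pbrm1, Brd9 and Smarca4 promoters each held 1 MboI site in these windows, and the Arid1b and Smarcb1 promoters held 0. GATC was present in 48.0% of the 32851 promoter sequences of the same length, and because it reads the same on either strand a single search covered both. In GENCODE, the Brd9 window also overlaps the first exon of Trip13 and the Pbrm1 window that of Gnl3, both on the opposite strand. The Arid1b window lies inside the gene record, which starts at chr17:4994332, and overlaps the first coding exon of other Arid1b transcripts. The GC content of the 5 promoters ranged from 60.7% for Smarcb1 to 75.3% for Arid1b, against a median of 52.7% over all promoter sequences. The table of promoters held 8 of the 10 members, and Ss18 and Arid2 had no entry. Over the wider windows of 2 kb on each side of every TSS, the density of MboI sites ran from 1.61 per kb for Smarca4 to 2.71 per kb for Ss18. The density was 2.08 sites per kb for Arid1b and 1.92 sites per kb for Smarcb1, and the part of these sites in the loop scores was not tested.

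All 10 members had a loop, and their loops carried 126 tags in total (exact Poisson 95% interval, 105.0 to 150.0), which is 0.303% of the 41574 tags in the list. With only the start of each gene record as TSS, 9 members had a loop, since that of Smarcc1 lay at an internal TSS. For comparison, 45.8% of 21951 protein-coding genes and 23.9% of all GENCODE genes had a loop. A loop score of at least 10 was reached by 7 of the 10 members and by 10.9% of protein-coding genes, or 2397 of the 10050 with a loop. The median loop score was 12 tags over the members and 4 tags over the protein-coding genes that had a loop. How active these promoters are as transcription units was not analysed here. Each listed loop has a single tag count, some pairs of anchors are listed more than once, and no count could be assigned to a tumor. The members were therefore not tested against other genes. All intervals cover counting error only, and ligation products amplified by PCR are not independent molecules.

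The order of the members by loop score was Arid1b (29 tags), Dpf2 (25), Arid2 (19), Ss18 (14), Pbrm1 and Smarca4 (12 each), Arid1a (11), Brd9 (2), and Smarcb1 and Smarcc1 (1 each). The intervals of every pair of neighbours in this order overlapped. Of the 45 pairs of members, 16 had intervals that did not overlap, and all 16 set Brd9, Smarcb1 or Smarcc1 against a member with a larger score. The interval of Arid1a overlapped those of all other members, and those of Pbrm1 and Smarca4 overlapped that of Brd9. The order among Arid1b, Dpf2, Arid2, Ss18, Pbrm1, Smarca4 and Arid1a was not resolved at this depth. It also changed with the FDR. Over loops with an FDR under 0.01, Arid2 had 15 tags, Dpf2 13, and Arid1b and Ss18 10 each. With an FDR under 0.001, Ss18 had 10 tags, Arid2 9 and Arid1b 0. The FDR did not follow the tags alone. A 10-tag loop of Arid1b at 86.5 kb had an FDR of 0.00251, and a 3-tag loop of Dpf2 at 824.1 kb had 6.55e-06. An FDR limit can thus remove a short loop with many tags, and the part of span in this order was not tested.

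**Figure D1:**
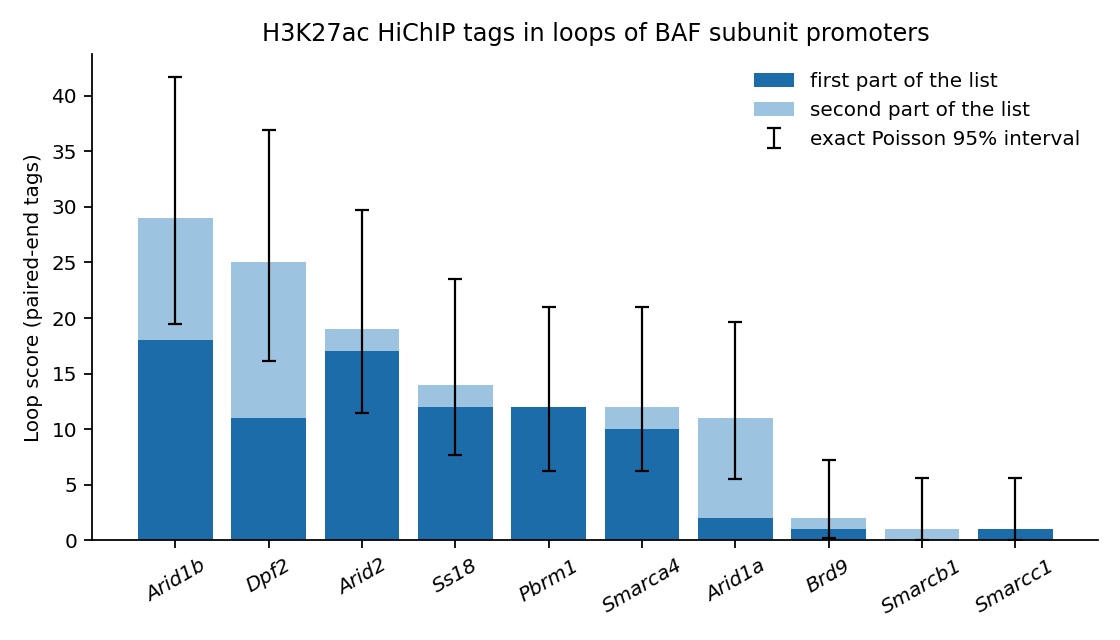
Loop score of each member in paired-end tags (vertical axis), split by the first (dark) and second (light) part of the loop list, with exact Poisson 95% intervals of the total as black bars. Scores run from 29 tags for Arid1b to 1 tag for Smarcb1 and Smarcc1, and the tags of Pbrm1 all lie in the first part.

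**Figure D2:**
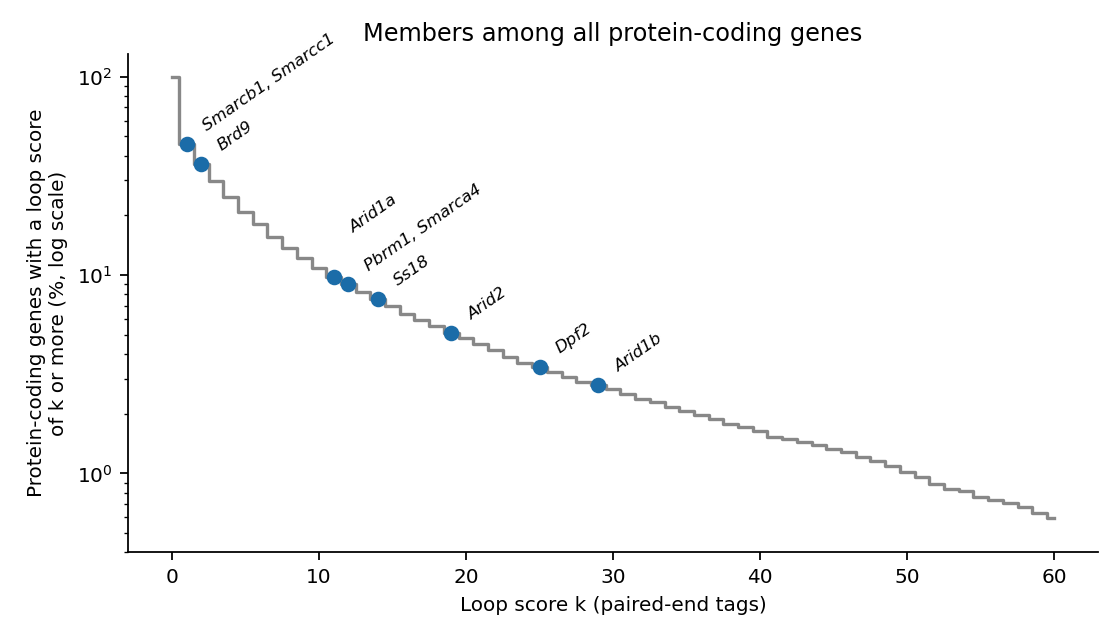
Share of the 21951 protein-coding genes (vertical axis, percent on a log scale) whose loop score is at or above the value on the horizontal axis in paired-end tags, with the members as points. Arid1a and the 6 members with larger scores sit among the upper 10.9% of genes that reach 10 tags, and Brd9, Smarcb1 and Smarcc1 sit among genes with 1 or 2 tags.

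Positions in the list rise from start to end and then start over, which divides it into 2 parts that could not be assigned to the tumors. The first part held 13683 loops and 28657 tags, which is 68.9% of all tags, and the second held 10561 loops and 12917 tags. Of the members' tags, 66.7% (Wilson 95% interval, 58.1 to 74.3) lay in the first part. Loops in both parts were present at 7 of the 10 members and at 24.3% of protein-coding genes, or 5335 of the 10050 with a loop. The members differed in how their tags were divided. All 12 tags of Pbrm1 lay in the first part (100%, 75.8 to 100), as did 17 of the 19 tags of Arid2 (89.5%, 68.6 to 97.1) and 12 of the 14 tags of Ss18 (85.7%, 60.1 to 96.0). The opposite division was seen for Arid1a, which had 2 of 11 tags in the first part (18.2%, 5.14 to 47.7), and Dpf2 had 11 of 25 (44.0%, 26.7 to 62.9). Arid1b divided its tags 18 to 11 (62.1%, 44.0 to 77.3). The intervals of Pbrm1, Arid1a and Dpf2 did not include the share of the whole list, and those of Arid1b, Arid2 and Ss18 did. These intervals take each tag as independent, but tags enter the list loop by loop. A single loop held 5 of the 9 second-part tags of Arid1a, and a single loop held 6 of the 14 of Dpf2. Whether these divisions depart from those of other genes was not tested.

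The canonical subunits are described first. Arid1b encodes the DNA-binding subunit that can take the place of ARID1A in canonical BAF, and the gene lies at chr17:4994332-5347656 on the plus strand of mm10. Its promoter anchor joined 14 distinct distal anchors through 15 loops and 29 tags (exact Poisson 95% interval, 19.4 to 41.6). A single distal anchor, 86.5 kb upstream of the promoter, held 14 of these tags, which is 48.3% of the loop score. The same pair of anchors was listed in both parts, with 10 tags (FDR 0.00251) in the first and 4 tags (FDR 0.0133) in the second.

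That distal anchor spanned chr17:4907577-4909735, outside annotated genes, and the nearest TSS, of the noncoding gene 4930579D07Rik, lay 14.6 kb away. Its central 300 bases, chr17:4908507-4908806 on the plus strand of GRCm38.p6, are shown because the anchor carried the most tags of any distal anchor of the members, and GATC is again in capitals.
Arid1b distal anchor: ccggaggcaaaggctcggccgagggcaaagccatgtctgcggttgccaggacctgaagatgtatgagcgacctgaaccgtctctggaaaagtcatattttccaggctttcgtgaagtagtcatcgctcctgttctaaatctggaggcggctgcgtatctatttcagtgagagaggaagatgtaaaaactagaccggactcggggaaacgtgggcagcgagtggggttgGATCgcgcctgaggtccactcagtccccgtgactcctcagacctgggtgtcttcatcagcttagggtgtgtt

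The GC content of these bases was 54.7%, against 75.3% in the Arid1b promoter window, which overlaps a coding exon. These bases held 1 MboI site of the 6 in the whole anchor. The next loops of Arid1b had 2 tags each. They reached an intergenic anchor 226.5 kb upstream and an anchor inside an Arid1b intron 194.4 kb downstream. A pair of single-tag loops also ended within Arid1b introns, 143.2 and 135.0 kb from the promoter. In all, 7 of the 14 distal anchors of Arid1b lay away from the TSS of any other gene, and these held 22 of its 29 tags (75.9%, Wilson 95% interval 57.9 to 87.8). The 7 distal anchors at other genes, among them Zdhhc14, Synj2, Tmem242, Ezr and Snx9, had a single tag each.

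Arid1a, at chr4:133679008-133756769 on the minus strand, encodes the more common ARID1 subunit and had 6 loops with 11 tags (5.49 to 19.7). Its strongest loop joined the promoter to the noncoding gene Gm12974 57.9 kb upstream with 5 tags (FDR 0.0118), and the next, with 2 tags (FDR 0.00415), reached Rps6ka1, which encodes a ribosomal S6 kinase, at 130.7 kb. The remaining 4 loops had 1 tag each, among them loops to Wasf2, to Grrp1 and to an intergenic anchor. As at Arid1b, the strongest loop thus ran upstream of the promoter over less than 100 kb, but at Arid1a it ended at the TSS of another gene.

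Dpf2 encodes the PHD finger subunit of canonical BAF, which reads acetylated histone H3, and lies at chr19:5896516-5913010 on the minus strand. It had 14 loops with 25 tags (16.2 to 36.9). The strongest, with 6 tags (FDR 0.0083), was also the shortest loop of any member and joined the promoter to Cdc42ep2, a CDC42 effector gene 12.1 kb away. A loop of 3 tags reached Yif1a, which encodes an ER to Golgi transport protein, at 824.1 kb (FDR 6.55e-06). Of its 13 distal anchors, 12 lay at TSSs of other genes, with 23 such genes in all. These included Map3k11 and Pcnx3 with 2 tags, Vps51 and Tm7sf2 with 2 tags, and the noncoding gene Malat1 with 1 tag. An anchor with loops in both parts overlapped exons of Fam89b, Sssca1 and Gm16538 and lay within 2 kb of a TSS of Ehbp1l1. Dpf2 thus reached the largest number of other promoters of the 10 genes.

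The polybromo subunits are described next. Arid2, at chr15:96287518-96404992 on the plus strand, encodes the ARID subunit of polybromo BAF and had 9 loops with 19 tags (11.4 to 29.7). Its strongest loop had 4 tags (FDR 0.00128) and joined the promoter to Scaf11, a splicing-related gene, at 175.0 kb. Loops of 3 tags reached Twf1, an actin-binding protein gene, at 1696 kb (FDR 1.72e-06), Ano6, a lipid scramblase gene, at 495.2 kb (FDR 2.67e-05), and Slc38a2, an amino acid transporter gene, at 413.3 kb (FDR 5.48e-05). The loops to Ano6 and Slc38a2 were also present in the second part with 1 tag each. Arid2 was the only member with more than 1 distal anchor that recurred in both parts.

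Pbrm1, at chr14:31019138-31121592 on the plus strand, encodes the subunit with a row of bromodomains that gives polybromo BAF its name. It had 9 loops with 12 tags (6.20 to 20.96). The strongest had 3 tags (FDR 0.000943) and ended at the paired promoters of Phf7, which encodes a PHD finger protein, and Bap1, which encodes a deubiquitinase of histone H2A, 233.2 kb downstream. A loop of 2 tags (FDR 0.00178) reached Mettl6 and Eaf1 at 476.2 kb, and the other 7 loops had 1 tag each. Of the 12 tags, 10 lay downstream of the promoter, and none of the 9 loops had a counterpart in the second part. A start site of Gnl3, a nucleolar GTPase gene on the opposite strand, lay 3 bases from one of Pbrm1, so all 9 loops belonged equally to both genes.

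Of the noncanonical subunits, Brd9 was the member. It encodes the bromodomain subunit that defines noncanonical BAF and lies at chr13:73937811-73960895 on the plus strand. It had 2 loops with 2 tags (0.242 to 7.22), 1 in each part. These reached Tert, the telomerase catalytic subunit gene, at 310.7 kb (FDR 0.0132) and the unnamed gene model Gm47469 at 625.8 kb (FDR 0.0294). The start of Trip13, a meiotic and mitotic checkpoint ATPase gene on the opposite strand, lay 27 bases away, and both loops also counted for Trip13.

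Ss18, on chromosome 18 at chr18:14624198-14682914 of the minus strand, encodes the subunit whose human counterpart is fused to SSX in SyS. It had 6 loops with 14 tags (7.65 to 23.5) and no loop shorter than 381.2 kb. The strongest joined Ss18 to Kctd1, which encodes a BTB domain protein, 467.7 kb upstream with 6 tags, and its FDR of 6.54e-12 was the lowest of any member loop. A loop of 4 tags (FDR 3.22e-08) reached Zfp521, a zinc finger transcription factor gene, 710.5 kb downstream. The other 4 loops had 1 tag each, with 3 at Impact, about 1709 to 1727 kb away, and 1 at a second anchor of Kctd1. The 5 distal anchors of Ss18 thus all lay at 3 genes.

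Of the subunits found in all assemblies, Smarca4 (chr9:21616169-21704230, plus strand), which encodes the ATPase BRG1, had 9 loops with 12 tags (6.20 to 20.96). The strongest, with 3 tags (FDR 0.00805), reached Kank2, a cytoskeletal regulator gene, at 181.8 kb and was also present in the second part with 1 tag. A loop of 2 tags (FDR 0.00358) reached Atg4d, an autophagy protease gene, at 351.4 kb. All 9 distal anchors lay at TSSs of other genes, including Epor, Tyk2 and Pde4a. Smarcc1 (chr9:110117708-110240178, plus strand), which encodes the scaffold BAF155, had 1 loop of 1 tag (0.0253 to 5.57) to Prkar2a, a protein kinase A subunit gene, at 1439 kb. The Smarcc1 anchor of this loop, chr9:110130293-110133396, lay inside the gene at an internal TSS. No loop reached the start of the Smarcc1 gene record.

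Smarcb1 (chr10:75896769-75921617, minus strand) encodes the core subunit BAF47 of the canonical and polybromo assemblies, which is lost in rhabdoid tumors. It also had 1 loop of 1 tag (0.0253 to 5.57), to the glutathione transferase gene Gstt1 at 123.8 kb (FDR 0.0352). Smarcb1 and Smarcc1 thus lay at the lowest value that a looped promoter can have.

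**Figure D3:**
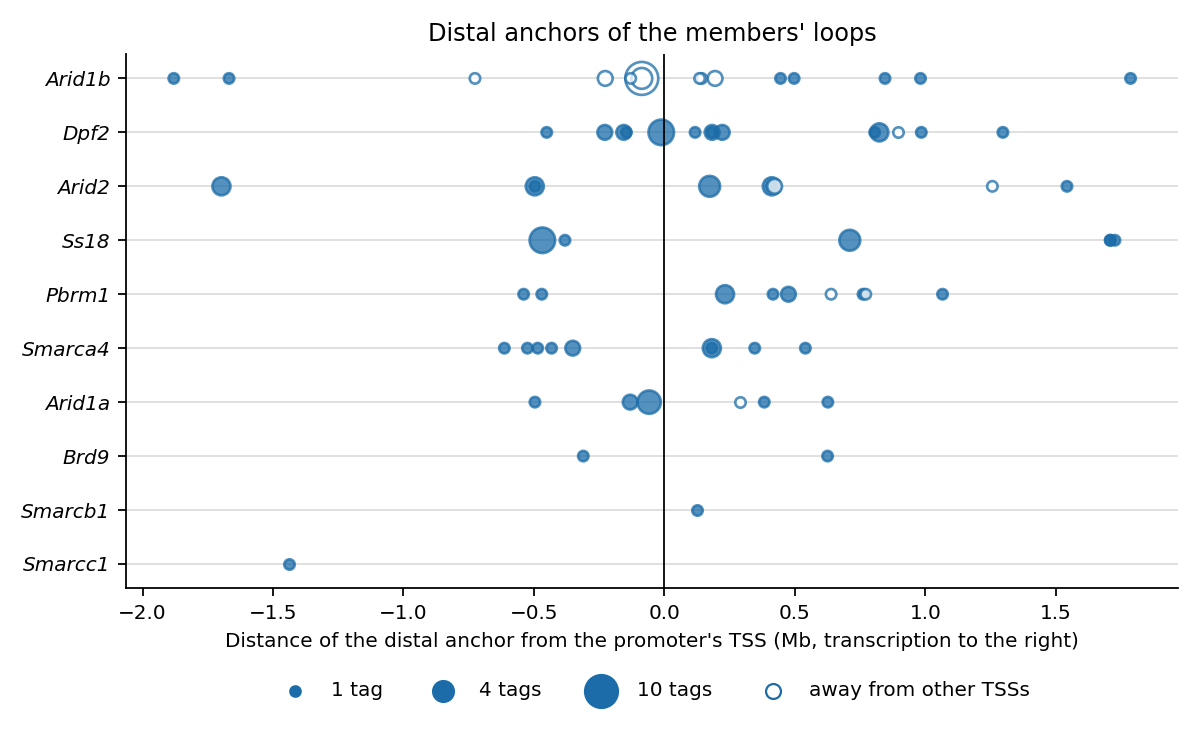
Distance of each distal anchor from the member's TSS in Mb (horizontal axis, with the direction of transcription to the right), one row per member, with circle area in proportion to the tag count. Filled circles lie within 2 kb of a TSS of another gene and open circles do not. The large open circles just upstream of Arid1b are its 10-tag and 4-tag loops at 86.5 kb.

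Across the 72 loops of the members, the span between anchor midpoints ranged from 12.1 to 1880 kb with a median of 468.5 kb, against 500.3 kb over the whole list. Single-tag loops were 49 of the 72 (68.1%, Wilson 95% interval 56.6 to 77.7), against 78.0% of the list. Loops with an FDR under 0.01 were 17 of the 72 (23.6%, 15.3 to 34.6), against 15.2% of the list. Such a loop was present at 7 of the 10 members, and not at Brd9, Smarcb1 or Smarcc1. It was present at 17.5% of protein-coding genes, or 3852 of the 10050 with a loop. The 4 loops under 100 kb, at Arid1a, Arid1b and Dpf2, were 5.56% of the member loops, against 5.13% of the list, and carried 25 of the 126 tags (19.8%), against 28.8% of the tags of the list. The 12 loops of 1 Mb or more carried 14 tags. No single-tag loop of the whole list was shorter than 108.8 kb, so short contacts entered the list only with more tags.

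Loops with a counterpart in the other part, meaning that both anchors overlapped, were 6 of the 45 member loops of the first part (13.3%, 6.26 to 26.2) and 6 of the 27 of the second (22.2%, 10.6 to 40.8). The same shares over the whole list were 6.50% and 8.42%. These loops belonged to 5 members, namely Arid1b, Arid2, Dpf2, Smarca4 and Ss18. Their partners were the intergenic anchor of Arid1b, Ano6 and Slc38a2 for Arid2, Kank2 for Smarca4 and Impact for Ss18. For Dpf2, the partner anchor reached Fam89b, Sssca1, Gm16538 and Ehbp1l1. The strongest loops of Arid1a, Dpf2, Arid2, Pbrm1 and Ss18 were each present in 1 part of the list.

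Most distal anchors of the members lay at promoters of other genes, at a share close to that of all looped promoters. Of 69 distinct distal anchors, 56 reached within 2 kb of a TSS of another gene (81.2%, Wilson 95% interval 70.4 to 88.6), against 78.7% of 15428 distal anchors of all looped promoters. Together they reached 72 other genes, of which 60 were protein-coding. Arid1b had the lowest share of the members, 7 of 14 (50.0%, 26.8 to 73.2), while the other members had 49 of 55 (89.1%, 78.2 to 94.9). The interval of Arid1b did not include the share of all looped promoters. Among the 519 protein-coding genes with at least 14 distal anchors, the median share away from other TSSs was 6.25%, and 17 genes (3.28%) were at or above the 50.0% of Arid1b. This median is taken over genes, while the 78.7% is taken over anchors. No loop joined 2 genes of the BAF family.

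**Figure D4:**
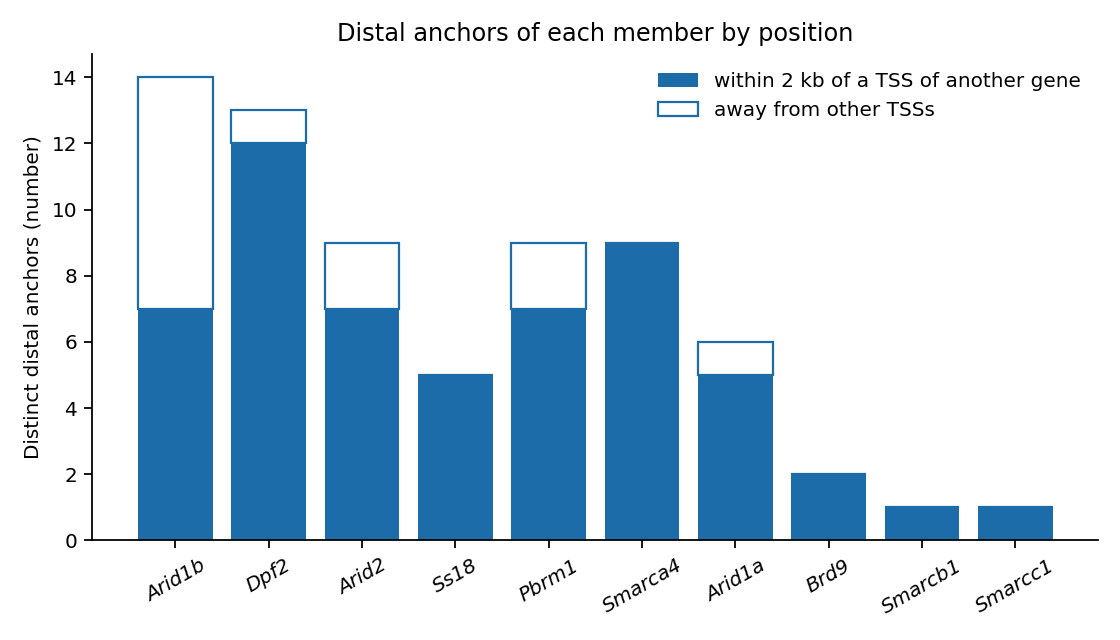
Number of distinct distal anchors of each member (vertical axis), filled where the anchor lies within 2 kb of a TSS of another gene and open where it does not. Arid1b has 7 open anchors of 14, and no other member has more than 2.

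The members lay in surroundings of unequal gene density. Dpf2 lay among 61 other protein-coding genes within 500 kb of its TSSs, whose median loop score was 15 tags, and 19 of them scored above Dpf2. Arid1b and Ss18 each had 3 such neighbours, with median scores of 3 and 0 tags, and Arid2 had 4, with a median of 6. None of these neighbours scored above Arid1b or Arid2, and 1 scored above Ss18. Of the 33 neighbours of Arid1a, with a median of 2 tags, 2 scored above it. Brd9 had 21 neighbours with a median of 0 and 3 of them above it, Smarcb1 had 28 with a median of 0 and 9 above it, and Smarcc1 had 22 with a median of 2 and 12 above it. The part of gene density in the shares of distal anchors at TSSs was not tested.

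Promoter anchors of 6 members also reached the TSS of another gene, which limits how far a loop score can be read as that of the member. Pbrm1 and Gnl3 shared all 9 loops, Brd9 and Trip13 shared both of theirs, and Smarcb1 shared its loop with the metalloproteinase gene Mmp11, whose nearest TSS lay 2376 bases away. Dpf2 and the antisense gene Gm42067 shared all 14 loops, and Arid2 shared its 9 loops with the noncoding gene 2610037D02Rik. The anchor of Smarca4 came within 2 kb of the start of the microRNA gene Mir1946b in 7 of 9 loops. The anchors of Arid1a, Arid1b, Smarcc1 and Ss18 reached the TSS of no other gene.

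The width of the promoter anchor moved with the loop score. The widest anchor of each member ran from 2.98 kb for Smarcb1 and 3.06 kb for Arid1a to 4.89 kb for Arid2, 4.96 kb for Dpf2 and 5.29 kb for Arid1b. Across the 10 members, Spearman's rho between this width and the loop score was 0.95, and over the 10050 protein-coding genes with a loop it was 0.30. Genes are not independent replicates, and width and tags come from the same libraries, so the correlation is a description. Its part in the order of the members was not tested.

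The contrast of the complexes set the 3 canonical members, with a mean loop score of 21.7 tags, against the 2 polybromo members, with a mean of 15.5 tags. The difference of 6.17 tags had an interval from -1.42 to 13.8 tags from counting error alone, which includes 0. The sign of the difference depended on the part of the list. It was -4.17 tags in the first part and 10.3 tags in the second, and it was -1.67 tags over loops with an FDR under 0.01. No order of the canonical and polybromo subunits can be read from these loops. Brd9, the noncanonical member, had 2 tags, but the other noncanonical genes had more.

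In the wider list of 29 BAF family genes, 27 had a loop, against 45.8% of protein-coding genes. The median loop score of the family was 4 tags, against 0 over all protein-coding genes and 4 over those with a loop. Of the 19 family genes that were not members, 17 had a loop, and their median score was also 4 tags. The 3 with the largest scores were Bicral with 44 tags (32.0 to 59.1), which encodes the GLTSCR1-like subunit of noncanonical BAF, Actb with 31 tags (21.1 to 44.0), the actin subunit, and Smarcd2 with 28 tags (18.6 to 40.5), an accessory subunit. Smarcd1, another accessory subunit, and Actl6b, the actin-related subunit of neurons, had no loop, and a count of 0 allows up to 3 tags, a one-sided bound unlike the intervals of the other genes. The 3 noncanonical genes thus spanned 2 tags at Brd9, 9 at Bicra and 44 at Bicral. The canonical genes spanned 2 to 29 tags and the polybromo genes 1 to 19, so the ranges of the classes overlapped.

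Paralogs within the family could also be set side by side. Arid1b had 29 tags and Arid1a 11, with intervals that met between 19.4 and 19.7. Dpf2 had 25 tags, while its paralogs Dpf1 and Dpf3, which are known from neurons and muscle, had 3 and 2 tags. Smarca4 had 12 tags against 4 for the alternative ATPase gene Smarca2, and Ss18 had 14 tags against 4 for Ss18l1. Smarcc1 and Smarcc2 had 1 and 2 tags. The interval of Dpf2 lay above those of Dpf1 and Dpf3, and the intervals overlapped in the other pairs of paralogs named here.

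**Figure D5:**
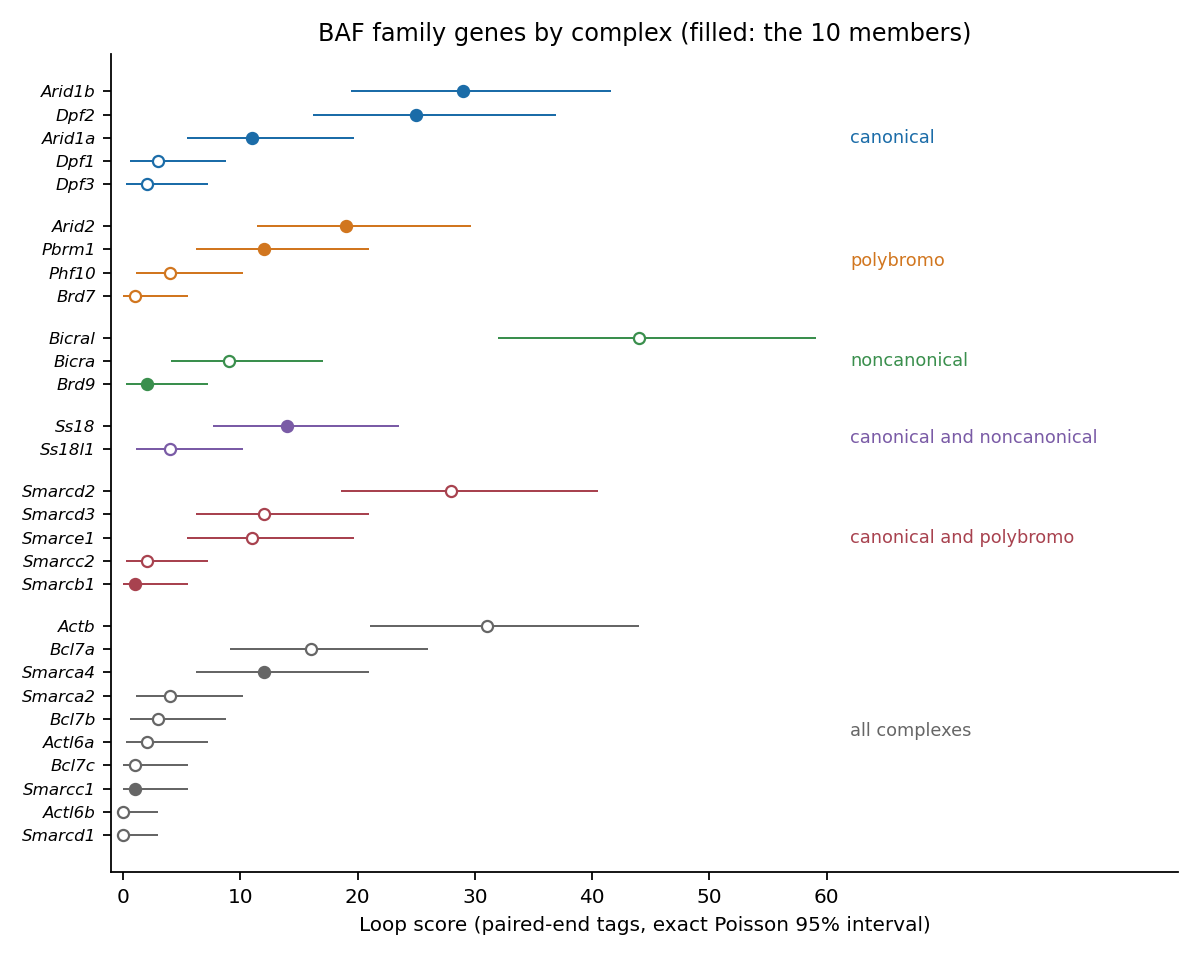
Loop score in paired-end tags (horizontal axis) of the 29 BAF family genes, grouped by the complexes that hold their product, with exact Poisson 95% intervals as lines (for a count of 0, a one-sided bound of 3 tags). Filled points are the 10 members. Bicral, at 44 tags, has a larger score than every member, but its interval overlaps those of Arid1b and Dpf2. The classes also overlap.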

How the data were processed

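H3K27ac HiChIP was performed on 2 hSS2 tumors. The authors used HiC-Pro for mapping to mm10 and hichipper for loop calling, and the methods name an FDR under 0.05, while a figure legend names an FDR under 0.01 in Mango, with the loops of the tumors merged after calling. In the deposited list, which merges the tumors, each loop has an unnormalized count of tags and an FDR, a p-value that the authors' loop caller adjusted for multiple testing. The list holds FDRs on either side of 0.01, with 15.2% of loops below it. A pair of anchors listed in both parts, such as that of Arid1b with 10 and 4 tags, kept a count in each. Whether tag counts were otherwise combined in the merge is not given in the sources used here. The ChIP-seq of the series was not analysed here.

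The columns carry no names and were taken to be 2 anchor positions, the tags and the FDR, and starts were made 1-based. Loops were assigned to the TSSs of all GENCODE vM21 transcripts (GRCm38) within 2 kb. The depth was 41574 tags in 24244 loops, 78.0% of them with 1 tag, and this sets the precision of each loop. Distal anchors were counted as distinct positions. Intervals are exact Poisson for tags and Wilson for shares, at the 95% level, with a one-sided bound of 3 tags for a count of 0, and the interval of the difference between class means is normal with Poisson variances. No test was possible between groups or tumors. Promoter sequences came from RefSeq on GRCm38.p6, and the sequence of the distal anchor from the same assembly, with which all anchors of the chromosomes used were in range.

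The 10 members, the BAF family list and the classes were chosen with earlier results of these data known. Named were all members, the 3 other family genes with the largest scores, those with no loop, and the genes at the strongest loop of each member, and further partner genes and paralogs were named after their values were seen. Alternatives were promoter windows of 1 and 5 kb, FDRs under 0.01 and 0.001, at least 2 or 4 tags, protein-coding transcripts, gene-record starts, each part alone, loop numbers, pairs of anchors counted once per part, anchors resized to 4 kb, protein-coding partners only, and Arid1b or Arid2 left out. The values were known when RefSeq starts and pairs counted once over the list were added. Assignment was tested on simulated data, where all 200 planted loops returned to their gene. Every planted anchor lay within 2 kb of its TSS, so this checked the code and not the rule or the distal anchors. The software was Python 3.11.15 with scipy 1.17.1, pandas 2.3.3, numpy 2.4.6 and, for figures, matplotlib 3.10.9.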

Additional observations from a re-analysis of the deposited data

How the results depend on the processing

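The members' results were the same with promoter windows of 1 and 5 kb, with each pair of anchors counted once per part and, within the counting error, with protein-coding transcripts, RefSeq starts and each pair counted once over the list. With gene-record starts, Smarcc1 lost its loop, and 9 members had one. Stricter loops moved most values. With an FDR under 0.01 the summed loop score was 60, the median 5, 15 family genes had a loop and the canonical minus polybromo difference reversed to -1.67. With an FDR under 0.001, 4 members and 10 family genes had a loop, the sum was 25, the median 0, the share of distal anchors near a TSS 100% and the difference -5. With at least 2 tags the sum was 77, the median 6 and 15 family genes had a loop. With at least 4 tags, 5 members and 8 family genes had a loop, the sum was 39 and the median 2. The sum was 84 in the first part, where the difference reversed to -4.17, and 42 in the second, where the median was 2. Numbers of loops gave a sum of 72 and a median of 7.5. Fewer loops enter the settings by FDR, tags or part by construction, and the numbers of loops leave tags unsummed. The FDR did not follow the tags alone, so an FDR limit can drop a short loop with many tags. Single scores moved beyond their counting interval at 8 of the 10 members with an FDR under 0.01 and at 9 with an FDR under 0.001, where Arid1b, the highest in the full list, had 10 and 0 tags.

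With 126 tags over 10 genes, counting error limits every comparison between members. No paired analysis was possible because the merged list does not separate the tumors, and no tumor could be left out.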
